A study of Mus musculus with 12 samples.

Results

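The cytosolic ribosomal protein genes encode the protein components of the translating ribosome. Of 77 canonical members, 74 were lower in Actr3 knockout mIMCD3 cells than in the control line, where 35.4% of all tested genes were lower. Against the same knockout cells 71 were higher in a line labelled as a knockout of Actr3 and Ift88, where 32.5% of all tested genes were higher, and 76 were higher after ciliobrevin D, where 32.7% were. Genes were selected by symbol, as Rpl or Rps followed by a number together with Rplp0 to Rplp2 and Rpsa, and had to be annotated as protein-coding. The symbols of 10 S6 kinase entries and of 2 entries with a -ps ending were left out. The rule matched 89 of 27179 genes, and 86 of them had a normalized count of at least 10 in at least 3 of 12 libraries. The 89 comprised 77 canonical ribosomal protein genes, 11 paralogs and Rps19bp1, which encodes a protein that binds RPS19 and is not itself a ribosomal protein. All 77 canonical genes passed the filter, 46 of the large subunit and 31 of the small subunit, and the counts given here are over these 77 unless paralogs are named. Of the paralogs 8 passed, while Rpl10l and Rpl39l had 0 reads in all 12 libraries, which allows up to 3 reads in each, and Rpl3l did not exceed 2.71 normalized counts.

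The small subunit of the ribosome decodes the messenger RNA and the large subunit joins amino acids into protein, and most ribosomal proteins are present in equal number in each ribosome. Their messenger RNAs are among the most abundant of growing cells and begin with a run of pyrimidines, the terminal oligopyrimidine (TOP) element, through which the kinase complex mTORC1 and the protein LARP1 govern their translation and stability according to nutrients and growth factors. The data here are messenger RNA levels, a different quantity from translation and from the number of ribosomes.

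Polyadenylated RNA was sequenced from mIMCD3 cells, an established mouse cell line of inner medullary collecting duct origin, in 4 groups of 3 libraries. One group carried the Actr3 knockout and received 0.5 µM ciliobrevin D, a small molecule that inhibits cytoplasmic dynein. Another group was labelled as a knockout of Actr3 and Ift88 together (dKO), the next as an Actr3 knockout (Actr3 KO), and the last was a wild type control line. Every group had reached confluence over 48 h with 10% fetal calf serum and was then kept without serum for 24 h, and per the protocol solvent took the place of ciliobrevin D elsewhere. The Actr3 product, ARP3, is a part of the Arp2/3 complex, which nucleates branched actin, and Ift88 encodes a subunit of the intraflagellar transport machinery of cilia. By the sample titles each genotype was represented by 1 line, so that line and genotype cannot be told apart, and no label states whether replicates were grown as independent cultures. The p-values therefore measure only the spread between these libraries, which may be technical. The titles give 3 replicates of control line 1, but 1 of the 3 control columns is named as line 2, replicate 1, which fits no title, so the control group may hold 2 lines. That column, called the line 2 control here, is counted among the 3 control libraries and was left out of the fit that uses replicate numbers.

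Read totals per library were 28902562 to 38077987, of which the top 10 genes made up 9.05% to 10.1% with ciliobrevin D, 5.98% to 6.16% in dKO, 8.69% to 10.2% in Actr3 KO and 5.18% to 5.90% in control. No ribosomal protein gene was among those 10 genes in any library. Actr3 had 1573 ± 180.2 normalized counts with ciliobrevin D, 871 ± 38.6 in dKO, 1218 ± 111 in Actr3 KO and 8336 ± 293 in control (SD, n = 3 each). Ift88 had 438 ± 4.29 with ciliobrevin D, 604 ± 29.8 in dKO, 617 ± 34.2 in Actr3 KO and 457 ± 14.9 in control. It was higher in the line labelled as its knockout than in control, at a log2 fold change of 0.40 ± 0.071 (SE, limma adjusted p = 3.94e-05), and did not pass the test against Actr3 KO (-0.03 ± 0.071, SE, limma adjusted p = 0.725), so its level does not check that label. A count over the whole gene cannot tell if a small edit disrupts the protein. Of 16 collecting duct markers, summed values were 69422 to 72514 with ciliobrevin D, 71851 to 77381 in dKO, 59734 to 64839.9 in Actr3 KO and 105184 to 112621 in control. Most of each sum came from Krt8, Krt18, Krt19, Cdh1 and Epcam. The water channel gene Aqp2 was at or near 0 everywhere, and Scnn1b, Aqp3 and Avpr2 had group means of at most 3.85, 13.2 and 17.3. Not all members followed the sum. Gata3 and Tfcp2l1 had higher means in Actr3 KO (54.0 and 3248) than in control (18.3 and 2190), and Aqp1 was highest in dKO (4950). The T cell marker Cd3e and the podocyte marker Nphs1 were at or near 0 in every group. The summed value of 3 endothelial markers was 7.77 to 24.7 with ciliobrevin D, most of it Pecam1, 4.91 to 8.32 in dKO, 1.91 to 9.93 in Actr3 KO and 4.45 to 9.54 in control, with Cdh5 at or near 0. The summed value of 3 leukocyte markers, nearly all of it Cd68, was 314 to 363 with ciliobrevin D, 133 to 156 in dKO, 158 to 169 in Actr3 KO and 179 to 207 in control. The summed value of 7 markers of other kidney epithelia, mostly Lrp2, was 11928 to 12414, 5386 to 6629, 14705 to 17463 and 10688 to 12783 in the same order, and that of 3 fibroblast markers did not exceed 51.8 in any library. The part of these marker differences in the results was not tested.

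Start regions are shown because the members moved together and because the pyrimidine run is the feature their messenger RNAs are known for. A window of 50 bases, 30 before to 20 after an annotated start, was available for 57 of the 77 genes from RefSeq (GRCm38.p6). Where several starts are listed for a gene, the first listed was used. For Rps2 and Rps12 the start used lies inside the annotated span of the gene, so a run at an outer start would not be seen. Capitals mark the longest run on the gene's own strand that begins with C and goes on with C or T for 7 or more bases in all. The windows of Rps6 (chr4:86857348-86857397, minus strand), Rpl35 (chr2:39005112-39005161, minus strand), Rps12 (chr10:23787190-23787239, minus strand), Rps15 (chr10:80292401-80292450, plus strand) and Rps21 (chr2:180257349-180257398, plus strand) held such a run. Those of Rplp0 (chr5:115559437-115559486, plus strand), Rpl27 (chr11:101442215-101442264, plus strand), Rpl41 (chr10:128549149-128549198, minus strand), Rps2 (chr17:24720033-24720082, plus strand) and Rpl24 (chr16:55966245-55966294, plus strand) held none, which says only that these letters are not in these windows.
Rps6: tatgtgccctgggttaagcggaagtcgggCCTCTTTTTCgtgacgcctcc
Rpl35: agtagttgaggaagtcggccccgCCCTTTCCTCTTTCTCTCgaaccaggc
Rps12: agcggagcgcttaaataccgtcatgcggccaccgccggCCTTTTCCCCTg
Rps15: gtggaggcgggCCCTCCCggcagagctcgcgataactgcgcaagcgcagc
Rps21: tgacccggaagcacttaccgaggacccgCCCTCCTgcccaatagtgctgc
Rplp0: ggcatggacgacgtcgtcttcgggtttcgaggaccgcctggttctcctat
Rpl27: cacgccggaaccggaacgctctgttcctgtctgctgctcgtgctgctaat
Rpl41: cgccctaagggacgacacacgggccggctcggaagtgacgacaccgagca
Rps2: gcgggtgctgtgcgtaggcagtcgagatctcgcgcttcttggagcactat
Rpl24: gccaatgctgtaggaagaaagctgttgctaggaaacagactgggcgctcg

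The run was present in 30 of 57 canonical windows (52.6%) and in 2460 of 10545 windows of all tested genes (23.3%), while on the opposite strand it was in 24.6% of canonical windows and 24.9% of all. CCGGAA, the core letters bound by ETS family factors such as GABPA, was present on either strand of the 300 bases around the start in 50.9% of canonical genes and 28.3% of all tested genes. TATAAA was found in 0 of 57 canonical genes in the 50 bases before the start, and in 1.57% of all tested genes. In Actr3 KO against control the median log2 fold change was -0.54 for the 30 genes with a run and -0.60 for the 27 without. It was 0.67 and 0.60 in dKO against Actr3 KO, and 0.42 and 0.46 with ciliobrevin D against Actr3 KO. With ciliobrevin D against control it was -0.14 and -0.24. The difference between genes with and without a run was not tested. This split rests on the first listed start of each gene, which for some genes lies inside the gene. As the window opens before the annotated start, a run in it can lie outside the messenger RNA. That of Rps15 ends before the start. A match is a description of letters and not a bound site.

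Levels of the 77 genes spanned a wide range. Per kb of coding length, the median gene had 22823 normalized counts over the 12 libraries, with quartiles of 16624 and 30379. Rpl41, which encodes the shortest ribosomal protein, stood highest at 359117 per kb, a value that divides by a coding length of only 75 bases. Rps28 followed at 59193 per kb, over 207 coding bases where the median gene had 456. Rps15 was at 56718, Rplp0, which encodes the base of the ribosomal stalk, at 44987, and Rpl8 at 40478. The lengths leave out untranslated regions, so a short coding length can raise the value per kb. Among the lowest were Rpl39 at 61.9 per kb, Rpl34 at 3901, Rpl29 at 4769 and Rpl26 at 5115. Rpl39, whose protein lines the exit tunnel of the large subunit, had 2.79 to 17.3 normalized counts per library, near the filter, and is the member for which the counts say least. RefSeq names at least 1 pseudogene for 62 of the 77 genes, with 23 each for Rpl31 and Rps12, and reads of near-identical copies could have been assigned to either locus or dropped. The 34 named ribosomal protein pseudogenes with counts summed to 0.205% to 0.252% of the canonical genes' summed value, a sum in which dropped reads do not show. The fold changes of genes with many copies carry the uncertainty of read assignment, Rps12, Rpl31, Rpl21, Rps2, Rpsa, Rpl17 and Rpl9 among those named.

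As a sum, the 77 genes accounted for 2.53 to 2.66% of a library's total value with ciliobrevin D, 3.52 to 3.71% in dKO, 1.98 to 2.21% in Actr3 KO and 2.99 to 3.3% in control. The libraries of no group overlapped those of another, with dKO highest, control next, ciliobrevin D-treated cells after it and Actr3 KO lowest. The means were 2.59 ± 0.0628%, 3.6 ± 0.1%, 2.12 ± 0.122% and 3.13 ± 0.153% in that order of naming (SD, n = 3 each, no test since the genes were chosen with results known). With each library's 10 highest genes left out of the total, the means were 2.86%, 3.83%, 2.34% and 3.31%, in the same order of height. These are shares of sequenced RNA, so fewer cells of a kind and less RNA per cell cannot be told apart, and a change in total RNA per cell would not be seen.

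**Figure D1:**
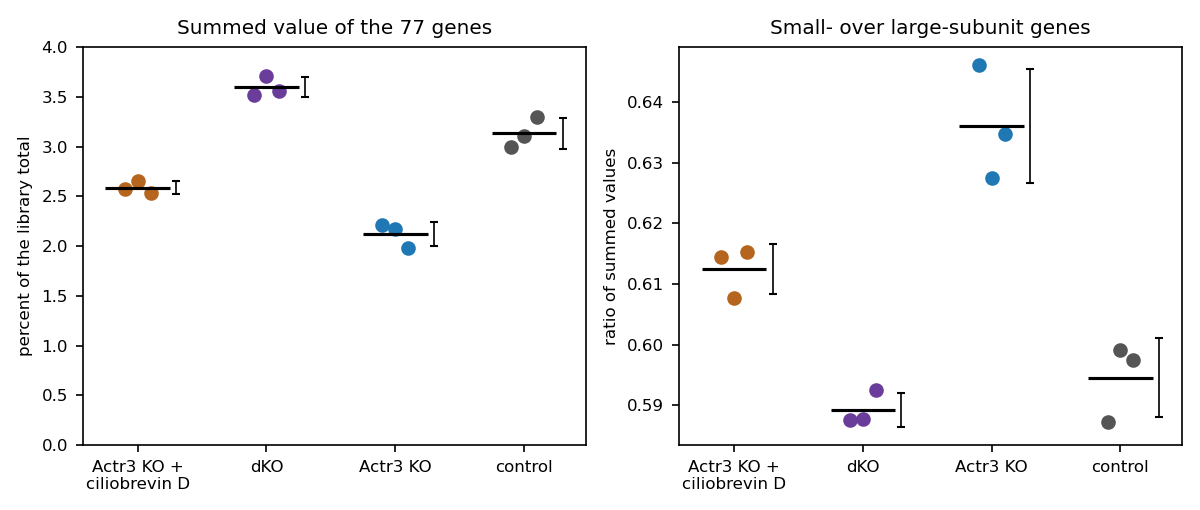
Left, the summed value of the 77 genes as a percent of the library total, and right, the summed value of small-subunit genes over that of large-subunit genes, for each of 3 libraries per group (points), with the mean (line) and SD (bar beside the points). The axis on the left begins at 0 and the one on the right does not; on the left the 4 groups are separate, with Actr3 KO at 1.98% to 2.21% and dKO at 3.52% to 3.71%.

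Single genes followed the sum with few exceptions. The mean was lowest in Actr3 KO for 73 of the 77 genes, in dKO for 2 and in control for 2, and highest in dKO for 43, in control for 30 and with ciliobrevin D for 4. The order Actr3 KO, ciliobrevin D, control, dKO (low to high) was the commonest, with 35 genes, and the same order with control above dKO held for 20. In a limma F-test over the 4 groups 76 of 77 genes passed an adjusted p of 0.05, where 93% of all 13939 tested genes did. The one that did not was Rpl39 (limma F-test adjusted p = 0.141).

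**Figure D2:**
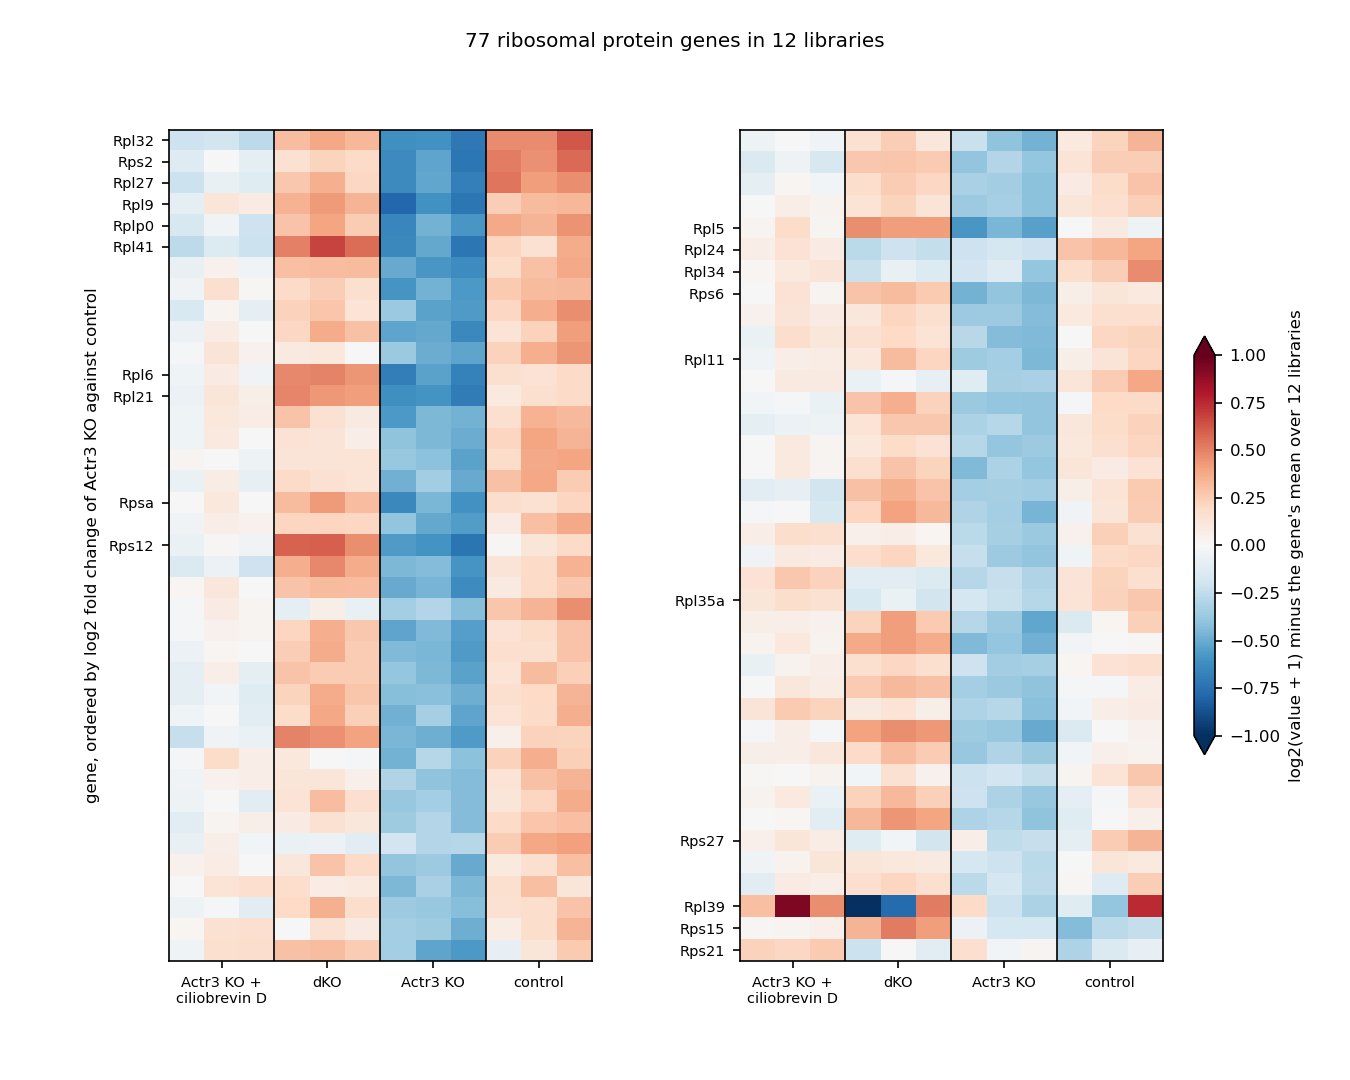
Each row is 1 of the 77 genes (20 are labelled) and each column 1 of 12 libraries, grouped as ciliobrevin D-treated Actr3 KO, dKO, Actr3 KO and control, and the colour is log2(normalized count + 1) minus the gene's mean over all libraries. On average the Actr3 KO columns are lowest in 73 rows, Rps15 and Rps21 are lowest in control, and Rpl24, Rpl34 and Rps27 are pale or blue in dKO where most rows are red.

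The first comparison asked how the Actr3 KO line differed from the control line. Of the 77 genes, 74 were lower and 2 higher in Actr3 KO, and 1 did not pass the test. Among all tested genes 69.8% passed, 35.4% lower and 34.4% higher. The median log2 fold change was -0.58, so that the median gene fell by 33.3%, while the median over all tested genes was 0.0047. All 29 small-subunit genes that fell and all 45 large-subunit genes that fell had fold changes between -1.17 and -0.28 on the log2 scale.

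The gene with the lowest fold change was Rpl32 (Entrez 19951, chromosome 6, 115805514 to 115808743 in GRCm38), a large-subunit protein. It had 5966, 6014 and 5577 normalized counts in the 3 Actr3 KO libraries, against 12682, 12711 and 14034 in the 3 control libraries, and its log2 fold change was -1.17 ± 0.054 (SE, limma adjusted p = 1.11e-13). Rps2 (Entrez 16898, chromosome 17, 24718121 to 24721927), a small-subunit protein near the entry of the messenger RNA channel, had 16333, 17619.9 and 15419 in Actr3 KO, against 36273, 34839.9 and 37696 in control. For both genes every knockout library lay below every control library, and the gap between the groups was wider than the spread within either. The log2 fold change of Rps2 was -1.14 ± 0.063 (SE, limma adjusted p = 1.67e-12).

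Next in size were Rpl27 at -1.09 ± 0.058 (SE, limma adjusted p = 1.04e-12), Rpl9 at -1.003 ± 0.061 (SE, limma adjusted p = 7.55e-12), Rplp0 at -0.96 ± 0.072 (SE, limma adjusted p = 1.81e-10) and Rpl41 at -0.87 ± 0.072 (SE, limma adjusted p = 6.87e-10). Rplp0, which anchors the stalk that recruits translation factors, had 26264, 29812 and 27540.3 normalized counts in Actr3 KO, against 53788, 52339 and 56532 in control. It was lower in each of the 3 knockout libraries than in any control library. Rpl32 lies on chromosome 6 and Rpl9 and Rplp0 on chromosome 5, where the median log2 fold change over all tested genes was -0.42 and -0.24. With the median of each chromosome subtracted from all its genes, the canonical genes still had a median of -0.61, and Rpl32 was at -0.76 (limma adjusted p = 8.34e-11, range over alternatives 1.67e-103 to 8.34e-11) and Rpl9 at -0.76 (limma adjusted p = 6.4e-10, range over alternatives 4.28e-57 to 7.69e-10).

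Both genes that were higher in Actr3 KO belong to the small subunit. Rps21 had 10345, 9054 and 9374 normalized counts in Actr3 KO, against 7426, 8361 and 8687 in control, a log2 fold change of 0.23 ± 0.066 (SE, limma adjusted p = 0.00362). Rps15, whose protein lies near the decoding site, had 23258, 21426 and 21387 in Actr3 KO, against 17907, 20084 and 20498 in control, a log2 fold change of 0.18 ± 0.066 (SE, limma adjusted p = 0.0215). The groups did not overlap for either gene. The call for Rps21 was lost with chromosome medians removed (limma adjusted p = 0.0687, range over alternatives 2.86e-05 to 0.0687). The call for Rps15 was lost without Actr3 KO replicate 1 (limma adjusted p = 0.0948) and without control replicate 1 (limma adjusted p = 0.133), in a range of 0.000633 to 0.133 over alternatives. Rps27, which binds zinc, was lower at -0.31 ± 0.089 (SE, limma adjusted p = 0.00452), but its groups overlapped, and its call was lost under quantile normalization (limma adjusted p = 0.145) and with the replicate number as a block (limma adjusted p = 0.0602, range over alternatives 6.61e-05 to 0.145). Rpl39 was not called, with a log2 fold change of -0.19 ± 0.45 (SE, limma adjusted p = 0.713) at about 7.96 counts in Actr3 KO and 9.75 in control.

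**Figure D3:**
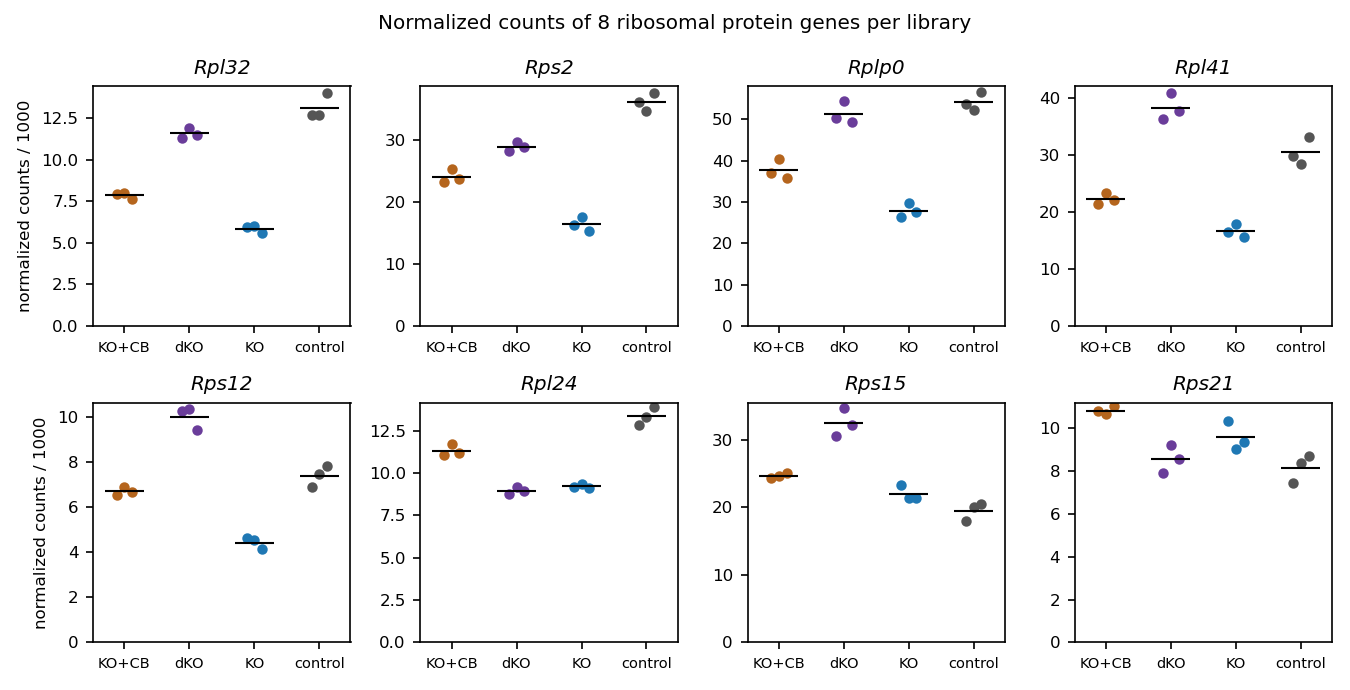
Normalized counts divided by 1000 (y axis, from 0) of 8 ribosomal protein genes in each library (points) with the group mean (line), for ciliobrevin D-treated Actr3 KO (KO+CB), dKO, Actr3 KO (KO) and control. Rpl32, Rps2, Rplp0, Rpl41 and Rps12 are lowest in Actr3 KO, Rpl24 is alike in dKO and Actr3 KO at 8761 to 9326, and Rps15 and Rps21 are lowest on average in control.

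The next comparison asked how the line labelled as a knockout of both genes differed from the Actr3 KO line. Of the 77 genes, 71 were higher and 1 lower in dKO than in Actr3 KO, against 32.5% and 33.2% of all tested genes (65.7% together). The median log2 fold change was 0.60, a rise of 52.1% for the median gene, and the median over all tested genes was -0.012. The Actr3 KO libraries serve in this comparison and in the first, so that opposite directions in the 2 comparisons are not independent.

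Rpl41 rose most. It had 36386, 40889 and 37784 normalized counts in dKO, against 16416, 17919 and 15562 in Actr3 KO, a log2 fold change of 1.21 ± 0.072 (SE, limma adjusted p = 5.42e-12). Rps12, a small-subunit protein of the beak region, had 10267, 10323 and 9436 in dKO, against 4614, 4517 and 4128 in Actr3 KO, a log2 fold change of 1.18 ± 0.058 (SE, limma adjusted p = 3.27e-13). Every dKO library was above every Actr3 KO library for both genes, and above every control library as well. Rpl6 followed at 1.11 ± 0.06 (SE, limma adjusted p = 1.31e-12), Rpl21 at 1.09 ± 0.054 (SE, limma adjusted p = 3.3e-13), Rpl9 at 1.07 ± 0.061 (SE, limma adjusted p = 2.94e-12) and Rpl32 at 0.99 ± 0.054 (SE, limma adjusted p = 1.54e-12). With chromosome medians removed Rpl41, Rps12, Rpl6, Rpl21 and Rpl9 were at 0.78, 0.75, 0.69, 0.67 and 0.66. Rpl17, Rpsa and Rpl32 were then at 0.99, 0.96 and 0.96, all above Rpl41.

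The size of the rise in dKO went with the chromosome on chromosomes 3, 5, 10 and 16, which had the most extreme medians. Over all tested genes the median log2 fold change in dKO against Actr3 KO was 0.40 on chromosome 10 and 0.39 on chromosome 5. It was -0.39 for the genes of chromosome 3 and -0.41 for those of chromosome 16. The ribosomal protein genes on chromosome 10 (Rpl41, Rps12, Rps26 and Rps15) had a median of 1.07, and those on chromosome 5 (Rpl5, Rpl6, Rpl9, Rpl21 and Rplp0) a median of 1.07. Those on chromosome 3 (Rpl34, Rps3a1 and Rps27) had a median of 0.092, and those on chromosome 16 (Rpl24 and Rpl35a) a median of 0.026. On each of these chromosomes the members' median lay above that of all its tested genes. Other chromosomes did not all follow. The medians over all tested genes and over the members were -0.029 and 0.75 on chromosome 8, with 2 members. They were 0.031 and 0.99 on chromosome 6, with 1 member. What sets the chromosome medians was not tested.

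Of the 5 genes that were not called in dKO against Actr3 KO, 4 are on chromosomes 3 and 16. Rpl24, a protein of a bridge between the subunits, had 8761, 9158 and 8947 normalized counts in dKO, against 9173, 9326 and 9130.3 in Actr3 KO, and the groups overlapped. Its log2 fold change was -0.041 ± 0.05 (SE, limma adjusted p = 0.491), that of Rpl34 0.092 ± 0.076 (SE, limma adjusted p = 0.294), that of Rpl35a 0.092 ± 0.054 (SE, limma adjusted p = 0.143) and that of Rps27 0.028 ± 0.089 (SE, limma adjusted p = 0.799). With chromosome medians removed, these became 0.38 for Rpl24 (limma adjusted p = 9.62e-07, range over alternatives 9.62e-07 to 0.967), 0.48 for Rpl34 (limma adjusted p = 1.04e-05, range 1.04e-05 to 0.869), 0.52 for Rpl35a (limma adjusted p = 4.45e-08, range 4.45e-08 to 0.422) and 0.42 for Rps27 (limma adjusted p = 0.000332, range 0.000332 to 0.906). In that fit 74 of the 77 genes were higher, and the share of all tested genes there is not given. The median was 0.58, and the standard deviation of the fold changes over the 77 genes was 0.23 where it had been 0.30. The call for Rps15, which was 0.56 ± 0.066 (SE, limma adjusted p = 1.8e-07), was lost there (0.13, limma adjusted p = 0.0868, range over alternatives 2.23e-19 to 0.0868).

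**Figure D4:**
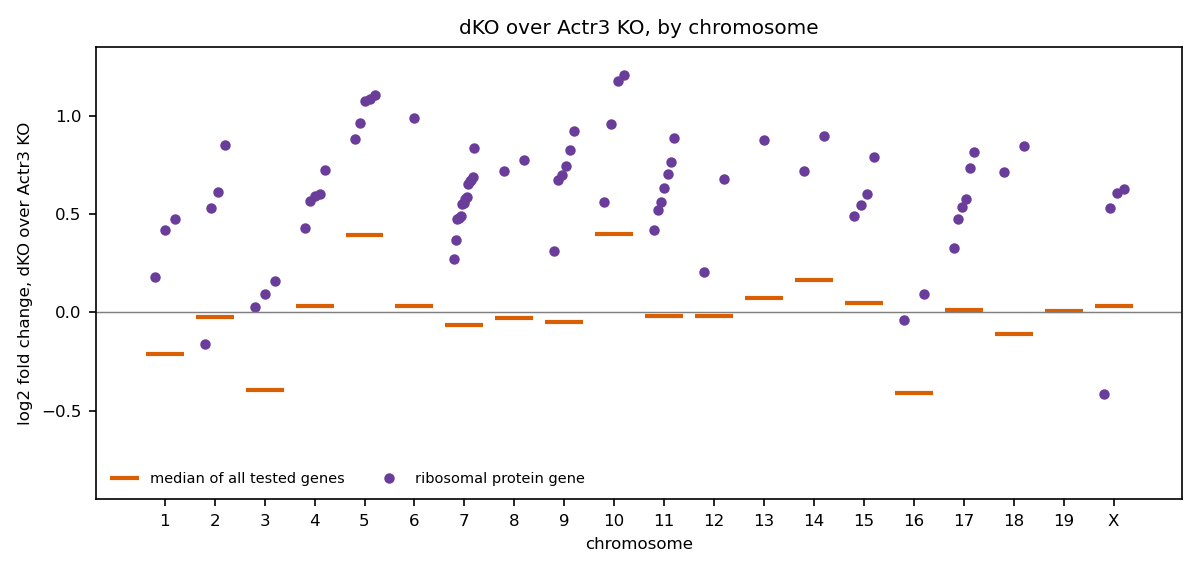
Log2 fold change of dKO over Actr3 KO (y axis) for the 77 ribosomal protein genes (points, spread sideways by rank) on each chromosome (x axis), with the median of all tested genes on that chromosome (bar). The members on chromosomes 3 and 16, where the bars lie at -0.39 and -0.41, are near 0, those on chromosomes 5 and 10, with bars at 0.39 and 0.40, lie from 0.56 upward, and the points below 0 are Rps21 on chromosome 2, Rpl24 on chromosome 16 and Rpl39 on the X.

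The gene that was lower in dKO was Rps21, with 7923, 9236 and 8562 normalized counts in dKO, against 10345, 9054 and 9374 in Actr3 KO. The groups overlapped, and the log2 fold change was -0.16 ± 0.066 (SE, limma adjusted p = 0.0368). This call was lost in 8 of 23 alternatives, among them TMM rescaling, edgeR on recovered reads and leaving out Actr3 KO replicate 1, dKO replicate 1 or dKO replicate 3 (limma adjusted p = 0.201 without dKO replicate 1, range over alternatives 0.0122 to 0.201).

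The last of the main comparisons asked how ciliobrevin D changed the Actr3 KO line. Of the 77 genes, 76 were higher and 0 lower in the treated cells than in untreated Actr3 KO cells, against 32.7% and 32.9% of all tested genes (65.5% together). The lowest of the 77 log2 fold changes was 0.16, so no gene could be called lower in this fit at any p threshold. With edgeR and DESeq2 on recovered reads 76 were higher and 0 lower as well. The median log2 fold change was 0.42, a rise of 34.0% for the median gene, and the median over all tested genes was -0.015. The fold changes ranged more narrowly than in the other comparisons with Actr3 KO, with a standard deviation over the 77 genes of 0.12 where that of dKO against Actr3 KO was 0.30. The same 3 untreated libraries serve in this comparison and in that with dKO.

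Rpl9 rose most with ciliobrevin D, with 10340.5, 11974 and 11633 normalized counts in treated cells, against 6367, 7219.9 and 6648 in untreated Actr3 KO cells. Its log2 fold change was 0.75 ± 0.061 (SE, limma adjusted p = 9.89e-10). Each treated library exceeded each untreated one. Rpl21 followed at 0.68 ± 0.054 (SE, limma adjusted p = 5.81e-10), Rpl6 at 0.64 ± 0.06 (SE, limma adjusted p = 7.13e-09), Rpl5 at 0.61 ± 0.064 (SE, limma adjusted p = 3.79e-08), Rpsa, which also serves as a laminin receptor, at 0.60 ± 0.061 (SE, limma adjusted p = 2.03e-08) and Rps12 at 0.60 ± 0.058 (SE, limma adjusted p = 1.14e-08). Rpl9, Rpl21, Rpl6 and Rpl5 lie on chromosome 5, where the median over all tested genes was 0.22. With chromosome medians removed they were at 0.53, 0.46, 0.42 and 0.39, beside a median of 0.43 over the 77 genes. Rpsa was then at 0.66, above each of them. The gene that was not called was again Rpl39, at 0.68 ± 0.45 (SE, limma adjusted p = 0.187). The calls of Rps15 (0.16 ± 0.066, SE, limma adjusted p = 0.0338), Rps21 (0.18 ± 0.066, SE, limma adjusted p = 0.024) and Rps27 (0.22 ± 0.089, SE, limma adjusted p = 0.0351) were lost in 7, 4 and 6 of 23 alternatives. Over these the limma adjusted p ranged over 0.0115 to 0.826 for Rps15, 0.00746 to 0.679 for Rps21 and 0.00335 to 0.86 for Rps27. All 3 were lost under quantile normalization, which gave 60 of 77 genes higher and a median of 0.25. Each was also lost without Actr3 KO replicate 2, without Actr3 KO replicate 3 and without ciliobrevin D replicate 3, and Rps15 and Rps27 without ciliobrevin D replicate 2 as well.

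Some members also act outside the ribosome. Rpl5 and Rpl11, which join the 5S ribosomal RNA in a particle that can bind MDM2, were at 0.96 and 0.59 on the log2 scale in dKO against Actr3 KO, at 0.61 and 0.42 with ciliobrevin D, and at -0.54 and -0.52 in Actr3 KO against control. All 6 differences passed the limma test. Rps6, the substrate of the S6 kinases, had 11769, 13037 and 12037 normalized counts with ciliobrevin D, 14353, 14702 and 14089 in dKO, 8491, 8978 and 8617 in Actr3 KO and 12246, 12842 and 12581 in control. The Actr3 KO libraries were the lowest of the 12, and the dKO libraries the highest. Its log2 fold changes were 0.73 ± 0.053 (SE, limma adjusted p = 1.3e-10) in dKO against Actr3 KO, 0.50 ± 0.053 (SE, limma adjusted p = 4.57e-08) with ciliobrevin D and -0.53 ± 0.053 (SE, limma adjusted p = 1.41e-08) in Actr3 KO against control. The subunits had similar medians, with no test between them. In Actr3 KO against control the median was -0.59 over the 46 large-subunit genes and -0.55 over the 31 small-subunit genes, in dKO against Actr3 KO 0.62 and 0.60, and with ciliobrevin D 0.44 and 0.40.

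The summed value of the small-subunit genes over that of the large-subunit genes was 0.608 to 0.615 with ciliobrevin D, 0.588 to 0.593 in dKO, 0.627 to 0.646 in Actr3 KO and 0.587 to 0.599 in control. The ratio was highest in Actr3 KO, next with ciliobrevin D, and overlapping between dKO and control. With Rps15 and Rps21 left out, a choice made after their values were seen, the means were 0.55, 0.529, 0.561 and 0.552 in the same order of groups. The Actr3 KO libraries, at 0.557 to 0.567, then still lay above the control libraries at 0.547 to 0.555, by less than before. The ratio was not tested.

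Against the control line the medians of dKO and of ciliobrevin D-treated cells were nearer to 0 than that of Actr3 KO. In dKO 21 of the 77 genes were higher than in control and 18 lower, against 32% and 35.1% of all tested genes (67.1% together), with a median log2 fold change of 0.033. Quantile normalization gave 51 higher and 3 lower with a median of 0.26, so the direction of the list as a whole in dKO against control depends on the scaling. Among the highest were Rps15 (0.74 ± 0.066, SE, limma adjusted p = 2.88e-09), with 30597, 34679.7 and 32251 normalized counts in dKO, against 17907, 20084 and 20498 in control, and Rpl17, Rps12, Rpl5 and Rpl4 at 0.47, 0.44, 0.42 and 0.40. The call for Rps12 was lost with chromosome medians removed (0.060, limma adjusted p = 0.378, range over alternatives 1.31e-12 to 0.378). Of the called genes the lowest was Rpl24, with 8761, 9158 and 8947 in dKO, against 12837, 13305 and 13896 in control and a log2 fold change of -0.58 ± 0.05 (SE, limma adjusted p = 1.95e-09). Rpl34, Rpl37a, Rplp1, Rpl35a and Rps2 came next at -0.44, -0.43, -0.40, -0.35 and -0.32. Rps15 lies on chromosome 10 and Rpl24 on chromosome 16, where the medians over all tested genes were 0.40 and -0.39. Once chromosome medians were subtracted, Rps15 was at 0.36 and Rpl24 at -0.21, both still called. Rpl17 was then at 0.51, above Rps15, and Rps2 at -0.46, below Rpl24. With chromosome medians removed Rpl34 was at 0.0046 and Rpl35a at 0.018, and neither was called (limma adjusted p = 0.961 and 0.786, ranges over alternatives 1.61e-07 to 0.961 and 9.16e-11 to 0.786), while the calls of Rplp1 and Rps2 were lost under quantile normalization (limma adjusted p = 0.0544, range over alternatives 2.26e-10 to 0.0544, and 0.0579, range 1.67e-08 to 0.0579), as was that of Rpl35a.

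With ciliobrevin D, 47 genes were below the control line and 3 were above it, against 32% and 33% of all tested genes (65.1% together), with a median log2 fold change of -0.17. Without the line 2 control, 35 were lower and 3 higher. Rpl32 was lowest, with 7921, 8038 and 7627 normalized counts in treated cells, against 12682, 12711 and 14034 in control, a log2 fold change of -0.74 ± 0.054 (SE, limma adjusted p = 1.83e-10). Rpl27 was at -0.61, Rps2 at -0.59, Rplp0 at -0.53, Rpl41 at -0.45 and Rpl38 at -0.42. On chromosome 6, which holds Rpl32, the median over all tested genes was -0.41. With chromosome medians removed Rpl32 was at -0.29 and still called, while Rps2 was at -0.63 and Rpl27 at -0.61. Those above control were Rps21, with 10800.2, 10649 and 11026 in treated cells, against 7426, 8361 and 8687 in control (0.41 ± 0.066, SE, limma adjusted p = 1.51e-05), Rps15 (0.34 ± 0.066, SE, limma adjusted p = 0.000122) and Rps20 (0.17 ± 0.054, SE, limma adjusted p = 0.0113). The call for Rps20 was lost without ciliobrevin D replicate 2 (limma adjusted p = 0.0588) and without control replicate 1 (limma adjusted p = 0.0584, range over alternatives 0.00323 to 0.0588).

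Ciliobrevin D-treated cells were below dKO for 52 genes and above it for 6, against 36.3% and 37% of all tested genes (73.4% together), with a median log2 fold change of -0.20. Of the genes that were lower in treated cells Rpl41 had the lowest fold change, with 21343, 23362 and 22102 normalized counts in treated cells, against 36386, 40889 and 37784 in dKO, a log2 fold change of -0.78 ± 0.072 (SE, limma adjusted p = 2.94e-09). Rps12, Rps26, Rpl32, Rpl15 and Rpl6 were lower in treated cells at -0.58, -0.56, -0.56, -0.54 and -0.47. Rpl41, Rps12 and Rps26 lie on chromosome 10 and Rpl6 on chromosome 5, where the medians over all tested genes were -0.39 and -0.22. With chromosome medians removed Rpl41, Rps12, Rps26 and Rpl6 were at -0.40, -0.19, -0.17 and -0.28. Rpl32 and Rpl15 were then at -0.48 and -0.43, below Rpl41. Those higher in treated cells were Rps21 at 0.34, Rpl24 at 0.34, Rps3a1 at 0.33, Rpl35a at 0.28, Rpl34 at 0.23 and Rpl39 at 1.10. Of these, Rpl24, Rps3a1, Rpl35a and Rpl34 are on chromosomes 3 and 16. With chromosome medians removed all 4 changed sign, at -0.086 for Rpl24, -0.076 for Rps3a1, -0.14 for Rpl35a and -0.18 for Rpl34, and Rpl35a and Rpl34 were then called lower in treated cells. Rps21, Rpl24, Rps3a1 and Rpl35a were not called under quantile normalization, and Rpl39, at 10.8, 17.3 and 12.2 counts in treated cells against 2.79, 4.62 and 12.8 in dKO, with overlapping groups, lost its call in 7 of 22 alternatives, among them those without ciliobrevin D replicate 2, dKO replicate 1 or dKO replicate 2. The call for Rpl34 was lost without dKO replicate 1 (limma adjusted p = 0.0537, range over alternatives 0.00466 to 0.0537).

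The paralogs are copies of canonical genes, some of whose proteins can replace the canonical one in ribosomes. All 8 that passed the filter were lower in Actr3 KO than in control, where 35.4% of all tested genes were, with a median of -0.68. Rpl22l1, the alternative form of Rpl22, had 2017, 2061 and 1886 normalized counts in Actr3 KO, against 3638, 4094 and 4759 in control, a log2 fold change of -1.06 ± 0.076 (SE, limma adjusted p = 9.12e-11). That of Rpl22 itself was -0.32 ± 0.063 (SE, limma adjusted p = 0.000149). Rpl36al had 3018 ± 61.6 in Actr3 KO and 4869.8 ± 263 in control, Rpl7l1 2077 ± 74 and 3294 ± 69.9, Rpl37rt 584 ± 35.6 and 808 ± 65.7, and Rps27l 1268 ± 54.8 and 1945 ± 275 (SD, n = 3 each). Rps27rt, at 324 ± 43.6 in Actr3 KO and 432 ± 80.2 in control, lost its call with the replicate number as a block (limma adjusted p = 0.0797, range over alternatives 0.00019 to 0.0797). Rpl32l, at 20.9 ± 2.68 in Actr3 KO and 38.3 ± 11.4 in control, lost it without the line 2 control (limma adjusted p = 0.0543, range over alternatives 0.00131 to 0.0543). Rps23rg1 had 42.4 ± 8.37 in Actr3 KO and 71.6 ± 11.5 in control.

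In dKO 6 of the 8 paralogs were higher than in Actr3 KO, against 32.5% of all tested genes. Rpl36al rose most, at 0.75 ± 0.052 (SE, limma adjusted p = 6.11e-11), followed by Rpl32l at 0.62 ± 0.26 (SE, limma adjusted p = 0.0393), whose call was lost in 6 of 22 alternatives, among them those without Actr3 KO replicate 2 or 3 or dKO replicate 2. Rpl7l1 was at 0.50, Rpl37rt at 0.48, Rps27l at 0.33 and Rpl22l1 at 0.28, while Rps23rg1 (0.45 ± 0.2, SE, limma adjusted p = 0.0516) and Rps27rt (0.092 ± 0.12, SE, limma adjusted p = 0.502) were not called. With ciliobrevin D 4 were higher, against 32.7% of all tested genes, with Rpl36al at 0.57, Rpl7l1 at 0.49, Rpl37rt at 0.43 and Rpl22l1 at 0.40. Rps27l, which is known as a target of p53, was the only one lower, with 1152, 1111 and 1102 normalized counts in treated cells, against 1273, 1319 and 1210.1 in untreated Actr3 KO cells. Its log2 fold change was -0.18 ± 0.074 (SE, limma adjusted p = 0.0421), a call lost in 9 of 23 alternatives (range of adjusted p 0.0149 to 0.163), among them those without Actr3 KO replicate 1 or 2, ciliobrevin D replicate 2 or 3, dKO replicate 3 or control replicate 3. Rps23rg1, Rpl32l and Rps27rt were not called there, at 0.016, 0.48 and 0.21.

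Fau, which encodes a fusion with RPS30, and Rack1, which encodes a scaffold on the small subunit, make ribosomal proteins but lie outside the symbol rule. Fau had 20646 ± 1531 normalized counts in dKO and 14135 ± 595 in Actr3 KO, a log2 fold change of 0.54 (SE 0.061, limma adjusted p = 9.24e-08), and 19373 ± 512 with ciliobrevin D, where it was at 0.46 (SE 0.061, limma adjusted p = 1.3e-06) against untreated Actr3 KO cells. Rack1 was lower in Actr3 KO than in control, at -0.41 (SE 0.058, limma adjusted p = 2.38e-06). Rack1 had 15306 ± 765 normalized counts in dKO and 9811 ± 372 in Actr3 KO, a log2 fold change of 0.64 (SE 0.058, limma adjusted p = 3.56e-09). With ciliobrevin D it was at 0.26 (SE 0.058, limma adjusted p = 0.000591), a call lost under quantile normalization (0.061, limma adjusted p = 0.361, range over alternatives 1.47e-05 to 0.361).

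Of 20 translation factors and partners whose messenger RNAs are also of the TOP class, 17 were lower in Actr3 KO than in control, where 35.4% of all tested genes were, with a median log2 fold change of -0.64. In dKO against Actr3 KO 19 were higher (median 0.54), against 32.5% of all tested genes, and with ciliobrevin D 18 were higher (median 0.42), against 32.7%. Btf3, a subunit of the nascent polypeptide-associated complex, had 4577 ± 213 normalized counts in Actr3 KO and 8509.9 ± 138 in control, a log2 fold change of -0.90 (SE 0.05, limma adjusted p = 1.94e-12). Its partner Naca had 12391 ± 398 in dKO and 5717 ± 366 in Actr3 KO, and Tpt1, the translationally controlled tumour protein, 34784 ± 1363 and 13126 ± 541. The log2 fold changes were 1.12 (SE 0.058, limma adjusted p = 7.96e-13) for Naca and 1.41 (SE 0.075, limma adjusted p = 9.79e-13) for Tpt1. Npm1, the nucleolar histone chaperone nucleophosmin, had 25386 ± 1976 with ciliobrevin D and 13569.9 ± 1057 in untreated Actr3 KO cells, and the nucleosome assembly protein Nap1l1 12688 ± 476 and 8707 ± 218. Nap1l1 was lower in Actr3 KO than in control, at -0.80 (SE 0.052, limma adjusted p = 1.6e-11).

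**Figure D5:**
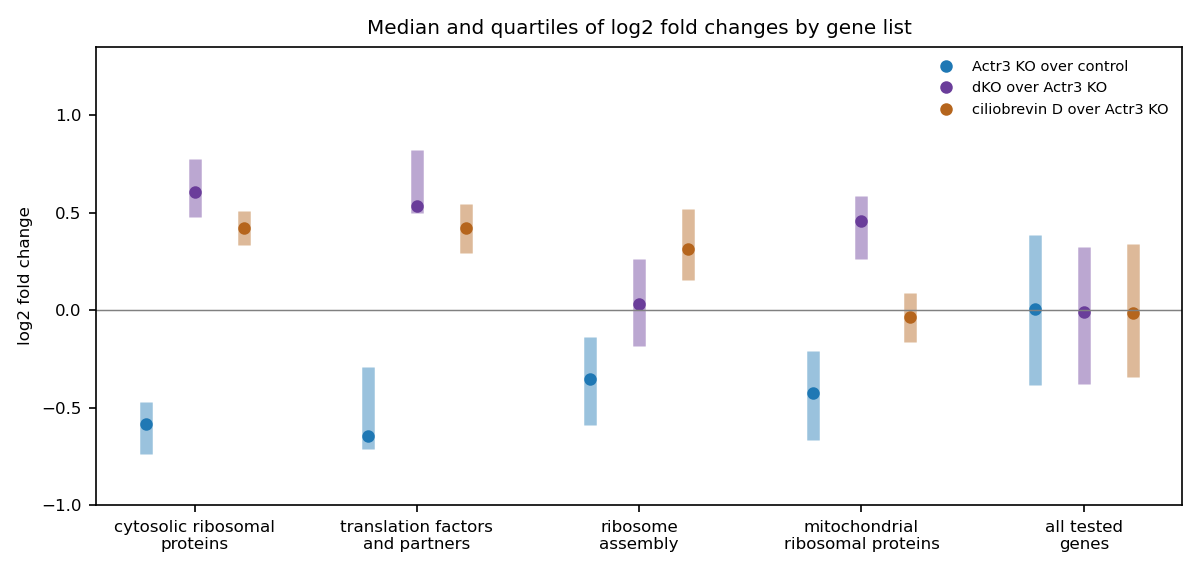
Median (point) and quartiles (bar) of log2 fold changes (y axis) in 4 gene lists and in all tested genes, for Actr3 KO over control, dKO over Actr3 KO and ciliobrevin D-treated over untreated Actr3 KO. Cytosolic ribosomal proteins and TOP-class translation factors share the 3 directions, ribosome assembly genes have a median of 0.029 in dKO over Actr3 KO, mitochondrial ribosomal proteins have one of -0.037 with ciliobrevin D, and all tested genes lie around 0.

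Of 50 ribosome assembly genes, which act in processing of ribosomal RNA and maturation of the subunits, 37 were lower and 1 higher in Actr3 KO than in control (median -0.35), against 35.4% and 34.4% of all tested genes. In dKO against Actr3 KO 20 were higher and 14 lower (median 0.029), near the 32.5% and 33.2% of all tested genes. With ciliobrevin D 41 were higher and 1 lower (median 0.31), against 32.7% and 32.9%. Fbl, the methyltransferase fibrillarin, had 1861 ± 77.1 normalized counts in Actr3 KO and 3572 ± 62.3 in control, and Gar1, of the pseudouridylation particles, 1350.5 ± 92.8 and 2550.4 ± 70.4. Noc4l and Ltv1, both of small-subunit assembly, were higher in dKO at 0.73 (SE 0.056, limma adjusted p = 2.97e-10) and 0.65 (SE 0.054, limma adjusted p = 1.01e-09). Sbds, which helps release EIF6 from the large subunit, had 4466 ± 669.7 with ciliobrevin D and 1859 ± 71.9 in untreated Actr3 KO cells, and Nop58, a core box C/D protein, 7419.5 ± 419 and 4167 ± 92.9.

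The 77 tested genes of the mitochondrial ribosome, a separate ribosome that serves the mitochondrial genome, were lower in Actr3 KO than in control for 62 (median -0.42), against 35.4% of all tested genes, and higher in dKO than in Actr3 KO for 66 (median 0.45), against 32.5%. With ciliobrevin D 13 were higher and 20 lower (median -0.037), a smaller share each way than the 32.7% and 32.9% of all tested genes. The number lower was 12 without Actr3 KO replicate 1 and 12 without ciliobrevin D replicate 3. Mrps25 had 442 ± 11.4 normalized counts in Actr3 KO and 913 ± 19.7 in control, and Mrps33 222 ± 16.8 and 539 ± 18.8. Mrpl54 had 2129 ± 128 in dKO and 923 ± 112 in Actr3 KO, and Mrpl18 2212 ± 44.7 and 1313 ± 50.5. Mrps6 had 3606 ± 845 in ciliobrevin D-treated cells and 771 ± 61 in untreated Actr3 KO cells, and Mrpl45 had 1876 ± 75.7 and 1281 ± 61.3.

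Of 12 tested genes of RNA polymerase I and its factors, 6 were higher and 5 lower in Actr3 KO than in control, where 34.4% and 35.4% of all tested genes were. In dKO against Actr3 KO 2 were higher and 7 lower, against 32.5% and 33.2% of all tested genes, and with ciliobrevin D 2 were higher and 4 lower, against 32.7% and 32.9%. Polr1d, a subunit shared by polymerases I and III, had 2395 ± 214 normalized counts with ciliobrevin D, 3275 ± 234 in dKO, 1767 ± 154 in Actr3 KO and 3518 ± 82.9 in control. Taf1c was higher in Actr3 KO than in control at 0.80 (SE 0.067, limma adjusted p = 1.11e-09), Polr1b lower in dKO than in Actr3 KO at -0.59 (SE 0.059, limma adjusted p = 1.85e-08), and Taf1d higher with ciliobrevin D at 1.04 (SE 0.093, limma adjusted p = 3.42e-09).

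Of 28 regulators, a list of MYC and its partners, other transcription factors, the mTORC1 pathway, LARP proteins and cap-binding factors, 11 were higher and 13 lower in Actr3 KO than in control, and 8 higher and 11 lower in dKO than in Actr3 KO. These counts are near the shares of all tested genes (34.4% and 35.4%, then 32.5% and 33.2%) and are no result about the list. With ciliobrevin D 19 were higher and 8 lower, against 32.7% and 32.9% of all tested genes. Myc, a transcription factor of ribosome biogenesis, had 6356, 6653 and 7034 normalized counts with ciliobrevin D, 2338, 2173 and 2309.9 in dKO, 3475, 3219.5 and 3472 in Actr3 KO and 4186, 4881 and 4725 in control. It was lowest in dKO, the group with the highest ribosomal protein sum, and the groups did not overlap. Eif4e, which binds the messenger RNA cap, had 5172 ± 457 with ciliobrevin D, 2143 ± 108 in Actr3 KO and 5136 ± 179.9 in control, with log2 fold changes of 1.27 (SE 0.06, limma adjusted p = 1.55e-13) and -1.26 (SE 0.06, limma adjusted p = 1.61e-13). Rheb, the GTPase that activates mTORC1, had 4351 ± 108 in dKO, 2411 ± 172 in Actr3 KO and 4469 ± 253 in control. Eif4ebp1, the repressor of EIF4E that mTORC1 inactivates, had 3897 ± 227 in dKO and 2473 ± 80.7 in Actr3 KO.

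Of 14 tested genes that survey ribosomes and unassembled ribosomal proteins, 4 were higher and 6 lower in Actr3 KO than in control, and 5 higher and 5 lower in dKO than in Actr3 KO, near the shares of all tested genes (34.4% and 35.4%, then 32.5% and 33.2%). With ciliobrevin D 7 were higher, against 32.7% of all tested genes. Mdm2, the p53 ligase that free RPL5 and RPL11 can bind, had 8774 ± 1828 normalized counts in treated cells and 2336 ± 42.8 in untreated Actr3 KO cells, a log2 fold change of 1.89 (SE 0.094, limma adjusted p = 3.7e-13). Ube2o, which marks unassembled ribosomal proteins, was at 0.64 (SE 0.057, limma adjusted p = 3.39e-09). Rnf10, a ligase for small-subunit proteins of stalled ribosomes, had 9399.7 ± 279 in dKO, 5361 ± 338 in Actr3 KO and 8974 ± 377 in control. Heatr3, which carries RPL5 to the nucleus, was lower in Actr3 KO than in control at -0.51 (SE 0.061, limma adjusted p = 2e-07). Ltn1, of the ribosome quality control complex, was lower in dKO than in Actr3 KO at -0.57 (SE 0.065, limma adjusted p = 1.11e-07), a call lost with chromosome medians removed (-0.15, limma adjusted p = 0.0515, range over alternatives 2.07e-15 to 0.0515).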

How the data were processed

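RNA sequencing of 12 libraries from mIMCD3 cells was analysed in 4 groups of 3. The deposited table holds normalized counts, a signal that the authors made by dividing each gene's count by a size factor of its library, per the file headers and the values themselves. The authors' tools, per the submitters' processing notes, were DESeq2 (2.11.40.7), featureCounts (2.0.1), HISAT2 (2.2.1) and fastp (0.23.2), with the genome mm10/GRCm38. The strand setting of the counting is not given here, so overlapping antisense genes are uncertain. Dividing by the smallest step of each library gave whole reads for 100% of values (within 0.01 reads). Library totals were 28902562 to 38077987 reads. Replicates differed beyond counting noise in every group (chi-square per degree of freedom 4.476 to 16.93), so none was merged.

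Of 27179 gene identifiers 25275 were named from RefSeq and 1904 were not. The 13939 genes that reached a value of 10 in 3 or more libraries were tested on log2(value + 1) with limma 3.58.1 in R 4.3.3, with the trend option and all 12 libraries in 1 fit. Fold changes are on that scale and come out too small for low genes. The adjusted p (Benjamini-Hochberg over all tested genes) had to be under 0.05. Alternatives, whose effect is given further on, were other pseudocounts, other filters on low values, TMM and quantile rescaling, edgeR 4.0.16 and DESeq2 1.42.0 on the recovered reads, fits limited to one pair of groups, a block for the replicate number, each library left out in turn, chromosome medians removed, all symbols of the rule as members, and shares outside the 10 highest genes. The shares of all tested genes are from the limma fit above, and counts from the alternatives have no such share beside them. The fits were tested on simulated data. Coding lengths came from GENCODE and sequences from RefSeq.

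The members and gene lists were chosen with earlier results of these data known. Named in the text are the edited genes, in each comparison the 6 highest and 6 lowest called canonical genes without overlap between groups, every paralog that passed the filter, the members of each other list with the smallest adjusted p in the first 3 comparisons, and the 5 highest and lowest genes per coding length. Genes outside that rule (Myc in all groups, Rpl11, Rps6, Rpl22, and genes not called or with overlapping groups) were chosen after their values were seen. A few genes that the rule selects are not reported here, and the lists of highest and lowest genes are without them.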

Additional observations from a re-analysis of the deposited data

How the results depend on the processing

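Quantile normalization moved the medians most, to a log2 fold change of -0.44 in Actr3 KO against control, 0.70 in dKO and 0.25 with ciliobrevin D against Actr3 KO, 0.26 in dKO against control and -0.45 with ciliobrevin D against dKO. It gave 51 genes higher and 3 lower in dKO against control, 0 lower in dKO against Actr3 KO and 1 higher with ciliobrevin D against dKO. The number lower in dKO against Actr3 KO was also 0 with no filter, with TMM rescaling, with edgeR on recovered reads and with chromosome medians removed, where Rps21 was the 1 gene concerned. Removing chromosome medians gave 1 gene higher in Actr3 KO against control, 3 higher with ciliobrevin D against dKO and a median of -0.025 in dKO against control. With all symbols of the rule, 1 gene (Rps27l) was lower with ciliobrevin D than in Actr3 KO. Outside the 10 highest genes the shares were 2.86% with ciliobrevin D, 3.83% in dKO, 2.34% in Actr3 KO and 3.31% in control. The small over large ratio with all symbols was 0.604 with ciliobrevin D, 0.583 in dKO and 0.586 in control. Without Rps15 and Rps21, an alternative chosen after seeing the data, it was 0.550 with ciliobrevin D, 0.529 in dKO, 0.561 in Actr3 KO and 0.552 in control. The cause of these shifts was not tested.

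Of 142 pairs of a named gene and a comparison, the alternatives gave 3157 values with the same direction and call, 69 that lost the call, 17 that gained it and 16 of the opposite sign. With chromosome medians removed the sign turned for Rpl24 (-0.086), Rpl34 (-0.18), Rpl35a (-0.14) and Rps3a1 (-0.076) with ciliobrevin D against dKO, for Rpl24 (0.38) in dKO against Actr3 KO, and for Rpl34 (0.0046) and Rpl35a (0.018) in dKO against control. It turned for Rpl39 in Actr3 KO against control with the replicate block (0.14) and without the line 2 control (0.14), in a range down to -0.43 without control replicate 3, and under quantile normalization for Rpl39 in dKO against Actr3 KO (0.12) and Rps21 with ciliobrevin D (-0.033). Rps23rg1 with ciliobrevin D turned to -0.16 without Actr3 KO replicate 1 and -0.093 without ciliobrevin D replicate 2, and was at most 0.11, without Actr3 KO replicate 3. Rps27 in dKO against Actr3 KO turned to -0.029, -0.020 and -0.015 without Actr3 KO replicate 2, Actr3 KO replicate 3 and dKO replicate 2, and was at most 0.13, without Actr3 KO replicate 1.

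Leaving out each library in turn gave 1 to 2 genes higher and 74 lower in Actr3 KO against control (median -0.62 to -0.55), 70 to 71 higher and 0 to 1 lower in dKO against Actr3 KO (0.58 to 0.64), and 73 to 76 higher and 0 lower with ciliobrevin D against Actr3 KO (0.38 to 0.45). The ranges were 14 to 23 higher and 14 to 23 lower in dKO against control (-0.014 to 0.076), 2 to 3 higher and 35 to 51 lower with ciliobrevin D against control (-0.22 to -0.13), and 4 to 7 higher and 42 to 52 lower with ciliobrevin D against dKO (-0.24 to -0.19). The F-test passed 76 to 77 genes. Shares were 2.55% to 2.61% with ciliobrevin D, 3.54% to 3.64% in dKO, 2.07% to 2.19% in Actr3 KO and 3.05% to 3.20% in control. The subunit ratios were 0.611 to 0.615, 0.588 to 0.590, 0.631 to 0.640 and 0.592 to 0.598 in the same order.

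Samples with the same replicate number did not deviate together (15 pairs, correlations -0.042 to 0.067, 0 over 0.1), so the values show no pairing by number. This cannot tell whether samples of the same number were grown or prepared together. The replicate block, fitted on 11 libraries without the line 2 control, gave 2 higher and 73 lower genes in Actr3 KO against control, 71 and 1 in dKO and 76 and 0 with ciliobrevin D against Actr3 KO, 22 and 14 in dKO against control, 3 and 38 with ciliobrevin D against control, and 6 and 52 with ciliobrevin D against dKO. Low counts limit Rpl39 and the paralogs Rpl32l, Rps23rg1 and Rps27rt most, and why Rpl39 is low was not tested. The edited lines are 1 each, and the recovered reads show counting error only within a library.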
